A study of Mus musculus with 6 samples.

Results

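Some transcripts of the fetal mouse testis carry a clone or gene-model name in the array's annotation. Among them 9 probes of 8 genes shifted in the same direction in every litter when NOTCH1 was held active in Sertoli cells. The genes 4933402E13Rik (2 probes), 1700018G05Rik and 5730409K12Rik were higher in overexpressors. The genes 6430548M08Rik, 4930486L24Rik, 4930447C04Rik, Gm773 and Gm5643 were lower. The 9 probes were chosen by their values from 371 detected clone-named probes (302 genes), on an array of 45281 probes. A clone-named probe was one whose platform symbol ends in Rik or is Gm, LOC, BC or AI with digits after it. Detection asked for a detection p-value below 0.05 on 3 or more of the 6 arrays. It was kept when log2 of its signal over the array's mean signal differed between overexpressor and control by 0.3 or more, with 1 sign, in each of the 3 dams. That contrast chose the members, so their differences are given as a description with no test.

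The overexpressors were 3 fetuses of genotype Amh-cre;RosaNICD/+, each compared with a RosaNICD/+ littermate as control, also 3 fetuses, all taken at embryonic day 14.5 from mice of mixed B6/CD1 background. Their mothers were heterozygous for Tg(AMH-cre)1Flor and their fathers homozygous for the floxed Gt(Rosa)26Sortm1(Notch1)Dam/J allele, so the controls carried that allele too. The testis pair of 1 fetus, without mesonephros, made 1 sample, and each of 3 dams gave 1 overexpressor and 1 control. Amh-cre acts in Sertoli cells while the whole testis was measured, so fewer cells of a type and less RNA per cell cannot be told apart, nor can an effect of the Cre transgene itself from one of active NOTCH1.

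NOTCH1 is a receptor whose intracellular domain is cut free when a neighbouring cell presents a ligand. The freed domain enters the nucleus, joins the DNA-binding protein RBPJ and turns on genes such as those of the HES and HEY repressors. Names ending in Rik come from the RIKEN collection of full-length mouse cDNAs, and Gm names are given to predicted gene models. Such names cover protein-coding genes of little studied function, long non-coding RNAs and transcribed pseudogenes, which are copies of a gene that have lost its coding capacity but are still read. In the GRCm38.p6 gene table, 5 of the 8 genes are protein-coding, 1 is a long non-coding RNA (1700018G05Rik), 1 a transcribed pseudogene (Gm5643) and 1 a miscellaneous RNA (5730409K12Rik). All 8 stand under their clone names in that table. It lists Six6os1 as another name of 4930447C04Rik and Kiaa0513 as another name of 6430548M08Rik. SIX6OS1 is a protein of the synaptonemal complex, which holds paired chromosomes together in meiosis.

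Promoter windows, from 250 bases before to 50 after a transcription start, were found in RefSeq (GRCm38.p6) for 6 of the 8 genes, 8 windows in all. They were searched on both strands for TGGGAA, the core of the RBPJ site, and for the longer GTGGGAA that contains it. The core was found in 1 window each of 4933402E13Rik, 1700018G05Rik and 4930447C04Rik, beginning 233, 151 and 97 bases before the start. These windows are printed 5′ to 3′ on the gene's strand, since they hold the binding core of the pathway that was activated, with that core in capitals (TTCCCA is the core read on the other strand). The first lies on the plus strand at chrX:62283249-62283548, the second on the plus strand at chrX:102928122-102928421 and the third on the minus strand at chr12:72917716-72918015.
4933402E13Rik: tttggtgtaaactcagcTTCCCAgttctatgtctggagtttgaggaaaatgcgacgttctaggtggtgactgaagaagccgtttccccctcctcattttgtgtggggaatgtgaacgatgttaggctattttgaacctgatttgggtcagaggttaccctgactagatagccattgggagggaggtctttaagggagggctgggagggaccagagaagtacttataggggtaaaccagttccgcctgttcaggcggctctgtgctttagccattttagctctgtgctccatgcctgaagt
1700018G05Rik: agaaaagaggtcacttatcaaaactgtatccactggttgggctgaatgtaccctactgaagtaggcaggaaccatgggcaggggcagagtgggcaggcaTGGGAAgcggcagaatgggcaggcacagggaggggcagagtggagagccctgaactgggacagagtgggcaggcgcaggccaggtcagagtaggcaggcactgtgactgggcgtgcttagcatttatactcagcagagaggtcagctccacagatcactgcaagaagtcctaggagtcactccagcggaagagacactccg
4930447C04Rik: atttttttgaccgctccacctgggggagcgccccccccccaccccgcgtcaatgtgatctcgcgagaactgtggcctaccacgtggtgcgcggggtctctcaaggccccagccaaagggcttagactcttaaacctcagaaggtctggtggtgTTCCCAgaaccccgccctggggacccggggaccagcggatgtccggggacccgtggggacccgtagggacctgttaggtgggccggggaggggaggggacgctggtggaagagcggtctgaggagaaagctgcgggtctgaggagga
The core was thus in 3 of 8 windows (37.5%), against 25.6% of 32851 windows of the same length over all genes and 21.2% of 259 windows of detected clone-named genes. The longer form was in 0 of the 8, against 6.38% of all windows. A match of letters is a description and no evidence of binding, and 1 of the 3 genes with a core, 4930447C04Rik, was lower in overexpressors.

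Of the higher genes, 4933402E13Rik, a protein-coding gene of the X chromosome, had the largest difference among all 371 detected clone-named probes. Values here and below are scaled intensities, meaning the probe's mean bead brightness after each array was brought to a common mean of 387.2. They compare arrays for 1 probe and do not compare genes. Its brighter probe read 1637.8, 1672.3 and 912.1 in overexpressors from dams 1 to 3, against 231.2, 284.4 and 203.0 in their control littermates. All 3 overexpressors stood far above all 3 controls, and the overexpressor of dam 3 was the lowest of its group. The log2 differences within dams were 2.82, 2.56 and 2.17, a mean of 2.52 ± 0.33 (SD, n = 3), or 5.72-fold.

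The second probe of 4933402E13Rik was dimmer. It read 420.3, 399.3 and 265.6 in overexpressors and 113.2, 136.1 and 115.4 in controls, again without overlap and with the overexpressor of dam 3 lowest. It was above background on all 3 overexpressor arrays and on 1 of 3 control arrays, so the control level lay near the limit of measurement. Its mean log2 difference was 1.55 ± 0.35 (SD, n = 3). After background correction with neqc the means of the brighter and the dimmer probe were 3.09 ± 0.30 and 2.99 ± 0.39 (SD, n = 3). The value of the dimmer probe rests on a control level that was mostly not above background, so its size is uncertain on both scales.

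The long non-coding RNA 1700018G05Rik, also on the X chromosome, was detected in every overexpressor and in no control. Its probe read 163.0, 192.0 and 167.2 in overexpressors, against 95.0, 99.8 and 102.4 in controls that were not above background. The mean log2 difference was 0.81 ± 0.12 (SD, n = 3), the smallest spread between dams among the higher members. Because the control level is only bounded, the measured means give a difference of at least 1.47-fold on this scale and at least 2.86-fold on the neqc scale. The bound sets the overexpressor mean against, on each control array, the lowest signal of any detected probe. It allows neither for the spread between fetuses nor for the choice of the probe by this contrast.

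The miscellaneous RNA 5730409K12Rik of chromosome 19 was the mildest of the higher members. Its probe read 305.1, 326.2 and 283.4 in overexpressors, against 202.8, 184.6 and 222.1 in controls, with no overlap. The differences within dams were 0.59, 0.82 and 0.35 on the log2 scale, so dam 3 stood just inside the threshold of 0.3, and the mean was 0.59 ± 0.24 (SD, n = 3). Dam 3 gave the smallest difference for all 4 higher probes.

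**Figure D1:**
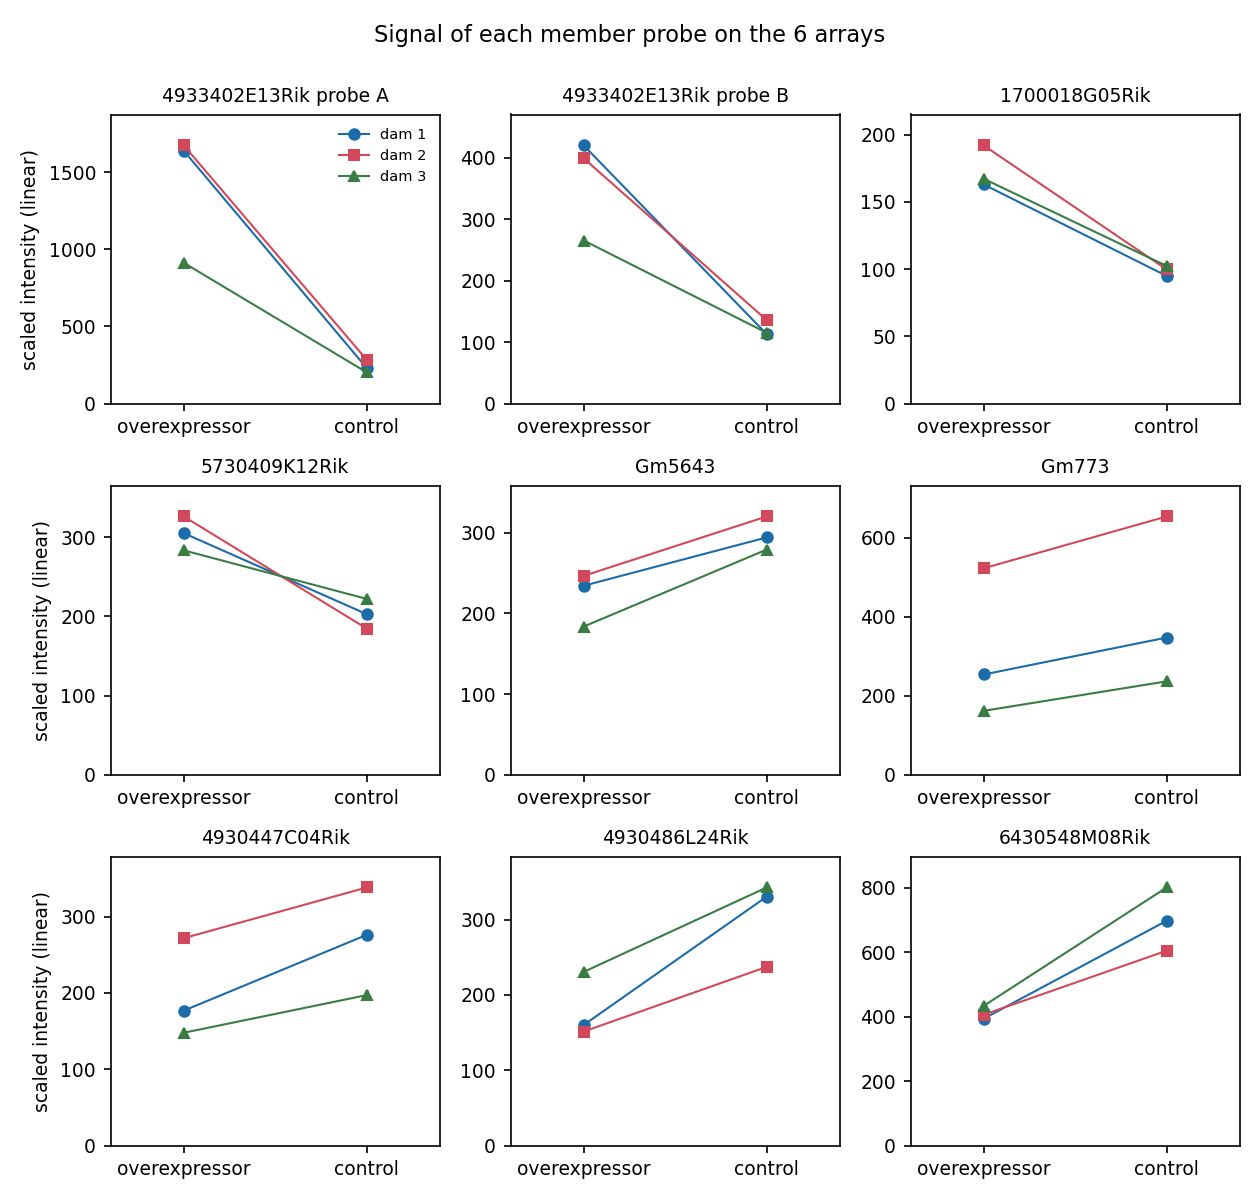
Each panel shows 1 probe, with overexpressors left and controls right; the vertical axis is scaled intensity on a linear scale from 0, and a line joins the littermates of a dam. Probe A of 4933402E13Rik reads 912.1 to 1672.3 in overexpressors and 203.0 to 284.4 in controls, while Gm773 and 4930447C04Rik overlap between the groups although each line runs the same way.

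Among the lower genes, 6430548M08Rik (Kiaa0513), a protein-coding gene of chromosome 8, had the largest mean difference on this scale, while on the neqc scale 4930486L24Rik had (-1.21, against -0.89 for 6430548M08Rik). Its probe read 394.1, 406.4 and 433.9 in overexpressors, against 697.7, 604.8 and 801.0 in controls. The overexpressors lay within a 1.1-fold range and all below the controls, which spread 1.32-fold. The mean log2 difference was -0.76 ± 0.16 (SD, n = 3).

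The protein-coding gene 4930486L24Rik of chromosome 13 lies between Ctsll3, a cathepsin-L-like gene, and Ctla2b. Its probe read 160.3, 151.5 and 230.7 in overexpressors, against 330.5, 237.3 and 342.7 in controls. The groups came close, since the highest overexpressor (dam 3) was only just below the lowest control (dam 2), and the mean log2 difference was -0.75 ± 0.25 (SD, n = 3). Dam 1 gave the largest difference, -1.04.

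The meiotic gene 4930447C04Rik (Six6os1) of chromosome 12 read 176.9, 271.8 and 147.9 in overexpressors, against 276.1, 338.2 and 197.2 in controls. Its groups overlapped: the overexpressor of dam 2 was higher than the control of dam 3. Only the comparison of littermates was uniform, with a mean log2 difference of -0.46 ± 0.17 (SD, n = 3).

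Gm773, a protein-coding gene of the X chromosome, differed between litters more than between genotypes. It read 253.8, 522.9 and 161.7 in overexpressors and 347.3, 654.1 and 236.4 in controls. The highest reading was 3.23 times the lowest among overexpressors and 2.77 times among controls, while the genotype difference was 1.36-fold (mean log2 difference -0.44 ± 0.11, SD, n = 3). The groups overlapped.

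Gm5643, the transcribed pseudogene on the X chromosome, read 234.4, 246.7 and 183.8 in overexpressors, against 294.3, 320.3 and 279.2 in controls. The groups did not overlap, and the mean log2 difference was -0.44 ± 0.15 (SD, n = 3). Near-identical copies can share probe signal, and the probe's sequence was not used here, so this value is uncertain as to which copy it reads.

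**Figure D2:**
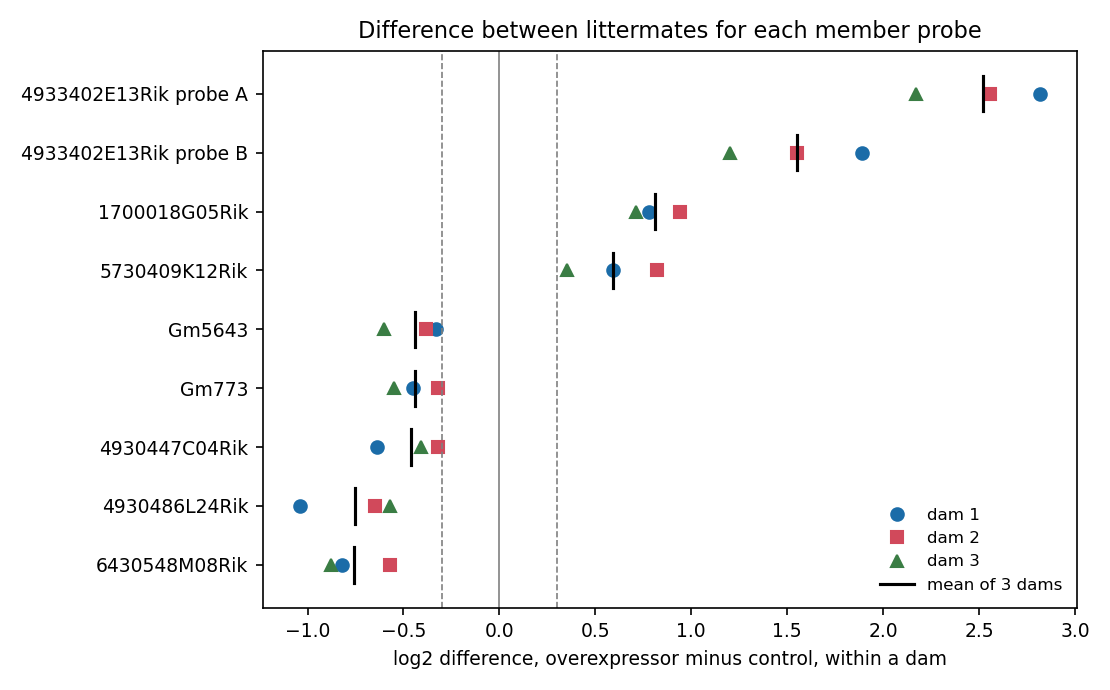
Each row is 1 member probe and each point 1 dam, on a log2 axis of overexpressor minus control; the black bar is the mean of 3 dams and the dashed lines mark the threshold of 0.3 in either direction. Differences run to 2.82 for 4933402E13Rik, while Gm773 and 4930447C04Rik lie closest to the threshold.

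Between 23 and 73 beads read a member on an array, with a standard error of 3.07 to 7.38% of the signal, which is error within an array and not between fetuses. Of the 9 probes, 7 were detected on all 6 arrays, and the values of 7 did not overlap between the groups. Values of 14.3% of all 19889 detected probes did not overlap, and since the rule used this contrast, nothing is read from the members' count.

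The share of clone-named probes that met the rule was near that of the rest of the array. It was 9 of 371 (2.43%), against 367 of 16538 detected probes with another symbol (2.22%). Over all 19889 detected probes it was 425 (2.14%), with 212 probes higher (1.07%) and 213 probes lower (1.07%). The other 362 detected clone-named probes had mean log2 differences from -0.40 to 0.36, with a median of -0.02, against a median of -0.02 over all detected probes. In a limma fit over all detected probes 4 of the 9 passed an adjusted p under 0.05, namely both 4933402E13Rik probes, 1700018G05Rik and 5730409K12Rik, where 0.568% of all probes passed. With the dam as a block 4 passed as well, with 6430548M08Rik in place of 5730409K12Rik, where 0.789% of all probes passed. The fit rests on the contrast that chose the members, so these counts are not separate support.

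**Figure D3:**
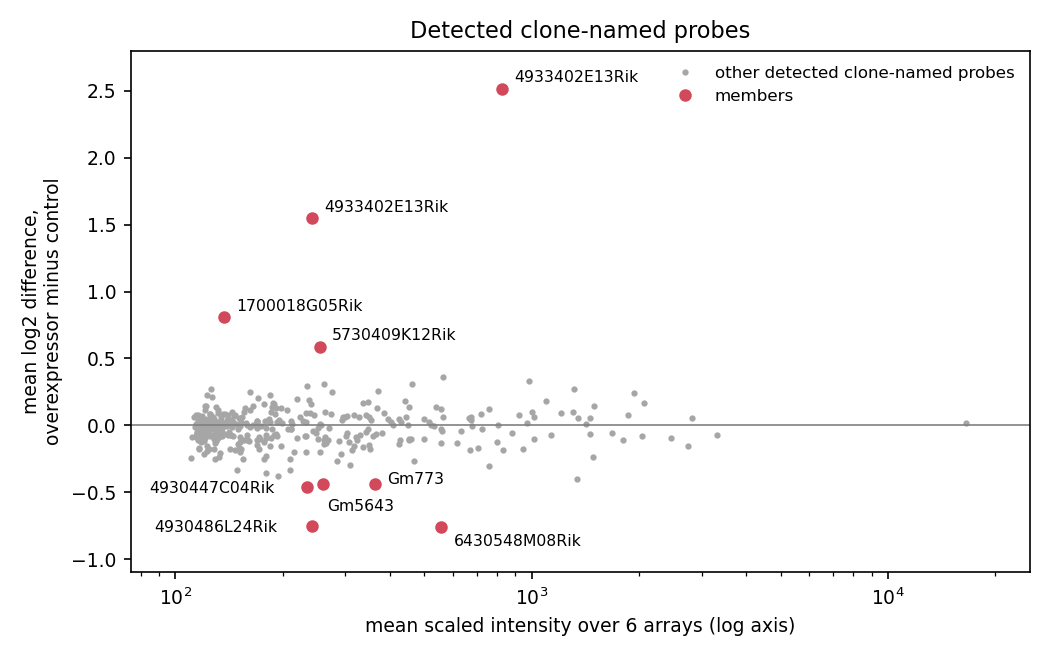
Each point is 1 detected clone-named probe, with its mean scaled intensity over 6 arrays on a logarithmic horizontal axis and its mean log2 difference, overexpressor minus control, on the vertical axis. The 362 other probes lie between -0.40 and 0.36, and the members lie outside that band.

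On the lower side the members and the probes just outside the threshold lay close together. The 2 lower members nearest to it were 4930447C04Rik, whose smallest difference in a dam was 0.316 in size, and Gm773 (0.323). Just outside stood 4933434E20Rik (0.296, mean log2 difference -0.31) and 6330509M05Rik (0.292, mean -0.34). On the higher side they lay further apart: 5730409K12Rik (0.352, mean 0.59) and 1700018G05Rik (0.708, mean 0.81) were the nearest inside, and 1810058I24Rik (0.244, mean 0.36) and 1700088E04Rik (0.203, mean 0.23) the nearest outside.

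Besides the 9 probes, the array carries 5 more for 4 of the 8 genes. The second probe of 6430548M08Rik was lower in all 3 dams, by less than the rule asks in dam 2, with a mean log2 difference of -0.38 ± 0.12 (SD, n = 3). The second Gm773 probe was likewise lower in all 3 dams, at -0.20 ± 0.07. It showed the same litter pattern as the first, with 167.7, 351.4 and 132.3 in overexpressors and 203.2, 386.9 and 151.3 in controls. The remaining 3 probes were dim. The second Gm5643 probe was above background on 3 of 6 arrays and stood at 0.07 ± 0.12, so it did not show the lower level of the first. The 2 further probes of 4930447C04Rik, above background on 4 and on 0 arrays, stood at -0.02 ± 0.19 and -0.15 ± 0.06. For Gm5643 and 4930447C04Rik the difference thus rests on 1 probe each, as it does for 1700018G05Rik, 5730409K12Rik and 4930486L24Rik, which have no other probe. Both probes of 4933402E13Rik are members.

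Of the 8 member genes 4 lie on the X chromosome: 4933402E13Rik, 1700018G05Rik, Gm773 and Gm5643. The X chromosome holds 13 of the 302 detected clone-named genes (4.30%) and 383 of 10982 detected genes with a chromosome (3.49%). Among the 337 genes with a probe that met the same shift anywhere on the array it holds 27 (8.01%). The 4 X-linked members went both ways, 2 higher and 2 lower.

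To see whether the surroundings moved too, the 5 genes on either side of each member were looked up in the gene table, a choice made after the members' values were known. Of these 80 genes, 36 have a probe and 21 were detected. Mean log2 differences of the 21 ran from -0.24 to 0.80. By limma 1 of them, Flrt1, passed an adjusted p under 0.05, and with the dam as a block 0 did, against 0.568 and 0.789% of all detected probes. For 4933402E13Rik 1 of 10 neighbours has a probe, which was not detected, and for Gm773 0 of 10 have one. Of the genes around 1700018G05Rik, which lies near the DMRT-family gene Dmrtc1a, only Dmrtc1a was detected. On scaled signal Dmrtc1a stood at 0.16 ± 0.04 (SD, n = 3). On neqc values its limma log2 fold change was 0.60 ± 0.13 (SE), with an adjusted p of 0.123. The probe was dim, reading 124.1 to 128.3 in overexpressors and 111.8 to 115.7 in controls, so the size depends on the scale. These values are of 1 of its 2 detected probes. The genes beside 4930486L24Rik, Ctsll3 and Ctla2b, and the gene beside 4930447C04Rik, Six6, a homeobox gene, were not detected.

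Flrt1, which encodes a leucine-rich repeat membrane protein, overlaps 5730409K12Rik in the gene table and was also higher in overexpressors of all 3 dams. Its brighter probe read 784.5, 738.8 and 611.3 in overexpressors, against 396.0, 379.7 and 446.7 in controls, with no overlap and again the smallest difference in dam 3. The limma log2 fold change was 0.96 ± 0.15 (SE), with an adjusted p of 0.0397, or 0.0674 with the dam as a block and 0.0761 with no filter on dim probes. With 1 array left out the call was lost each time, the adjusted p being 0.176, 0.121 and 0.0522 without overexpressors 1 to 3 and 0.186, 0.152 and 0.0682 without controls 1 to 3. The dimmer Flrt1 probe read 169.0, 173.0 and 147.1 in overexpressors and 105.1, 121.6 and 141.2 in controls (adjusted p = 0.162). Macrod1, an ADP-ribose hydrolase gene that also overlaps 5730409K12Rik, read 115.7, 123.3 and 128.3 in overexpressors and 118.0, 120.4 and 132.6 in controls, a mean log2 difference of -0.01 ± 0.04 (SD, n = 3). Whether the 5730409K12Rik probe reads a transcript of its own or one of Flrt1 was not tested. Flrt1 was looked up beside a member that the same contrast had chosen, so its p-values are not separate support.

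**Figure D4:**
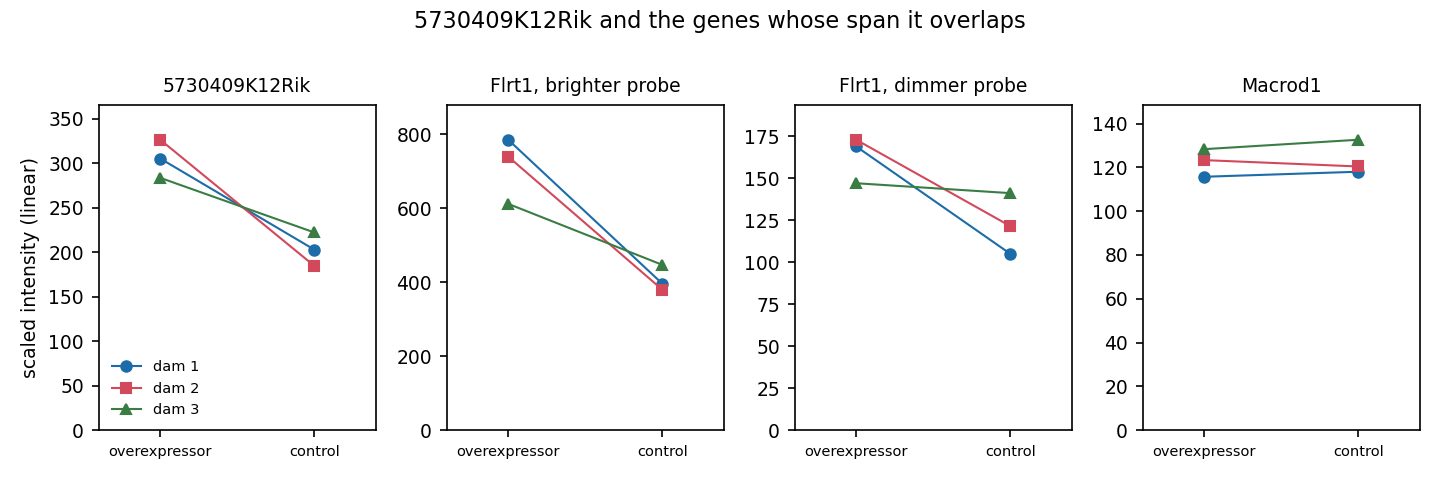
Scaled intensity of 5730409K12Rik, of both Flrt1 probes and of Macrod1 on the 6 arrays, with overexpressors left and controls right, a line for each dam and a linear axis from 0. The brighter Flrt1 probe reads 611.3 to 784.5 in overexpressors and 379.7 to 446.7 in controls, as 5730409K12Rik is higher in each dam, while Macrod1 stays between 115.7 and 132.6.

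Lists of cell type markers were read beside the members, taking for each gene its brightest detected probe. All 10 Sertoli genes were detected, among them Sox9, Amh and Dhh, as the tissue label asks. Of them 0 rose or fell by limma, while the fit with the dam as a block called 1 that fell, Sox8 (adjusted p = 0.0655 without the block and 0.0271 with it). The list was split, with 4 genes higher and 4 lower in all 3 dams and a median log2 difference of 0.07. Amh (-0.86 ± 0.32), Sox8 (-0.50 ± 0.07), Ptgds (-0.43 ± 0.30) and Dhh (-0.28 ± 0.11, SD, n = 3) were the lower ones. Cldn11 (1.06 ± 0.57), Aard (0.48 ± 0.10), Sox9 (0.18 ± 0.19) and Gata4 (0.17 ± 0.19, SD, n = 3) were the higher ones. In dam 1 Gata4 hardly differed, at 227.6 in the overexpressor and 227.2 in the control. The summed scaled intensity over all 10 genes was 27174 to 30240 in overexpressors and 19883 to 23236 in controls, a sum dominated by bright probes such as Aard (mean 14100 in overexpressors and 10100 in controls) and Cldn11 (5630 in overexpressors and 2660 in controls). Of 10 germ cell genes 8 were detected, with Mael and Sycp3 not detected. By limma 0 of the 8 changed, while the fit with the dam as a block called 2 that fell, Nanos2 (adjusted p = 0.0681 without the block and 0.0142 with it) and Dnd1 (0.167 without and 0.0445 with it). Among the 8, 6 were lower in all 3 dams and the median log2 difference was -0.42, against -0.02 over all detected probes. Of 5 Leydig, 4 detected endothelial, 4 macrophage, 4 erythroid and 3 mesonephric genes, 0 changed in either fit. At an adjusted p under 0.05 over all 19889 probes the same limma fit called 113, or 157 with the block.

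The summed level of the germ cell list ordered the dams as 3 of the lower members did. It was 7326, 9842 and 5860 in overexpressors of dams 1 to 3, against 9756, 14257 and 8664 in their control littermates. In both groups dam 2 was highest and dam 3 lowest, and Gm773, 4930447C04Rik and Gm5643 had that same order in both groups, as did the brighter probe of the higher member 4933402E13Rik. The other lower members, 4930486L24Rik and 6430548M08Rik, had their lowest control in dam 2. The genes of the germ cell list differed unevenly, with mean log2 differences of -1.96 for Nanos2, -0.99 for Dnd1, -0.75 for Dppa3 and -0.62 for Nanos3. Tdrd1 (-0.22), Ddx4 (-0.20), Pou5f1 (-0.14) and Dazl (-0.04) differed less. Dazl, the brightest of the list, had a mean of 3310 in both groups. The part of germ cell content in the members' differences was not tested. The mesonephric sum was 471.2 to 553.9 in overexpressors and 799.3 to 852.5 in controls, a difference that lay in 1 gene, Lhx1. Lhx1 read 195.3 to 337.6 in overexpressors and 542.6 to 639.0 in controls (limma adjusted p = 0.16). Pax8 (mean 111 in overexpressors and 114 in controls) and Cdh16 (122 and 124) hardly differed. Pax2, a defining gene of that epithelium, was not detected. The Leydig sum was 32149 to 40606 and 35610 to 37169, the endothelial 2361 to 2619 and 2388 to 2599, the macrophage 670.8 to 705.3 and 677.5 to 730.7, and the erythroid 6632 to 11227 and 7501 to 9527, in overexpressors and controls in that order, so these overlapped between the groups.

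**Figure D5:**
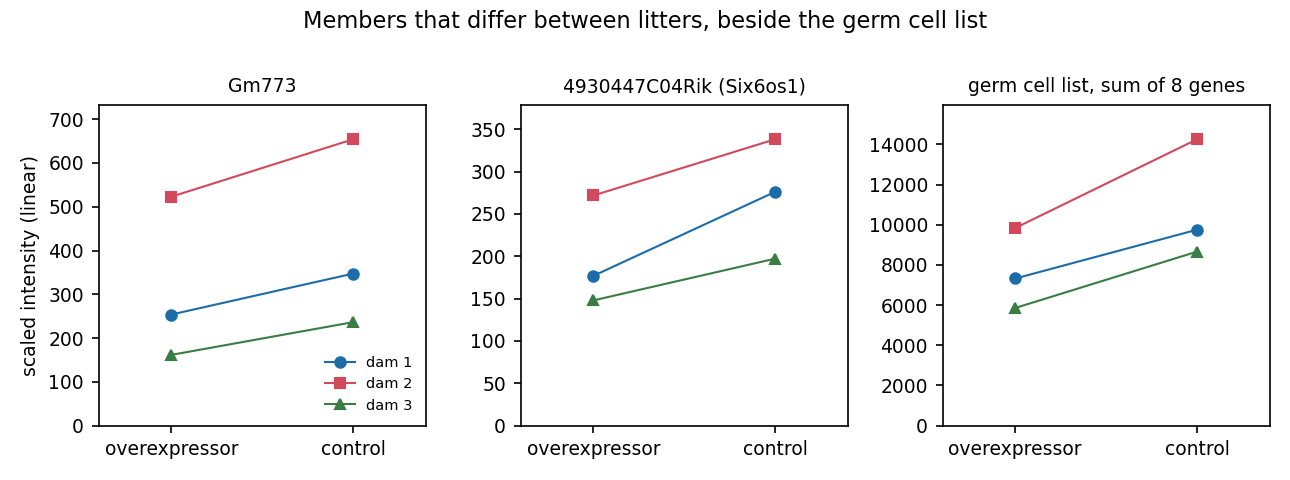
Scaled intensity of Gm773, of 4930447C04Rik (Six6os1) and of the sum of 8 detected germ cell genes on the 6 arrays, with overexpressors left and controls right, a line for each dam and linear axes from 0. In all 3 panels dam 2 is highest, dam 3 lowest and each overexpressor lower than its littermate. For Gm773 and 4930447C04Rik the rule that chose them fixed this lower level in each dam. The brighter probe of 4933402E13Rik, not drawn here, has the same order of dams but is higher in overexpressors. The 8 genes of the sum differ unevenly, with mean log2 differences from -1.96 for Nanos2 to -0.04 for Dazl.

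As a check on the pathway, Notch1 itself read 593.4, 480.3 and 533.0 in overexpressors, against 414.4, 293.5 and 335.3 in controls, a mean log2 difference of 0.63 ± 0.10 (SD, n = 3). Whether its probe matches the transcript of the RosaNICD allele was not tested. Of 9 listed NOTCH target genes 8 were detected, 2 rose and 0 fell by limma. The repressor gene Hey1 rose by 1.27 ± 0.15 (SE) on the log2 scale (adjusted p = 0.00878, and 0.0527 without overexpressor 1). The cyclin D1 gene Ccnd1 rose by 1.66 ± 0.16 (adjusted p = 0.00476). These are named because they passed the test; over the 8 detected targets the median log2 difference was 0.28, and 6 were higher in all 3 dams, while Hes5 (-0.10 ± 0.19) and Hey2 (-0.18 ± 0.25, SD, n = 3) were not.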

How the data were processed

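Per the labels' protocols, the material was total RNA of each testis pair, the label was biotin and the platform was 1 Illumina BeadChip array. Arrays were read with GenomeStudio 2010.3 per the submitters' processing notes. Per the file headers, each probe and array has in the deposited table a mean bead intensity, its standard error, the count of beads and a detection p-value. The intensities were taken as linear, neither normalized nor background-subtracted, and the detection p-values as set against negative controls. The authors' processed table holds intensity values equal to these signals times 1 factor per array (0.855 to 1.15), giving every array a mean of 387.2. Its column medians were 105.0 to 117.5. It is linear and not centred. Arrays had 19459 to 20285 detected probes.

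Probes took their symbol from the platform annotation, where 34885 of 45281 have 1 symbol, 18 several and 10378 none. Entrez identifiers matched 360 of 371 detected clone-named probes to the GRCm38.p6 gene table, and 0 of those probes had a different symbol there. The table served for names, biotypes, chromosomes and gene order only, since the files name no build. Members were found on log2 of signal over array mean. limma 3.58.1 under R 4.3.3 compared the groups over 19889 probes on neqc values (offset 16, two-sided, Benjamini-Hochberg adjustment, no litter term) and was tested on simulated data. Equal replicate numbers mark a shared dam in the labels. Littermates' deviations from group means correlated at 0.252, 0.426 and 0.304 in dams 1 to 3, other pairs at -0.279 to -0.0138.

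Members, marker lists and the rule for naming genes (every member, with values on all arrays, and the 2 probes on either side of the threshold in each direction) were chosen with earlier results of these data known. Alternatives were other scalings, filters, thresholds and arrays left out. The number of arrays limits the precision. Probe sequences were not used here.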

Additional observations from a re-analysis of the deposited data

How the results depend on the processing

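No mean difference of the 9 members changed sign under neqc, median scaling, the authors' processed values or with any 1 dam left out. With a dam left out the rule had fixed the sign in advance, since it asked for that sign in each dam. The authors' processed values are the same signals scaled to the same array mean. Neither setting is thus separate support. With neqc 8 of the 9 moved by more than their spread between dams, all away from 0, and the rule then found 27 probes (13 higher, 14 lower) that include the 9. The shares became 7.28% of clone-named and 5.03% of other probes. Median scaling lost Gm5643, leaving 8. Detection on all 6 arrays left 2 higher members, losing 1700018G05Rik and the dimmer 4933402E13Rik probe. A threshold of 0.2 found 19 probes (13 lower) and one of 0.5 found 5 (2 lower), with shares of 1.35% and 0.865% at 0.5. Read as 1 sign in all dams with a mean of 0.3 or more, the rule found 19 (8 higher, 11 lower). Without 1 dam it found 11 to 13 probes, 4 to 6 higher and 6 to 9 lower, with 9 lower when dam 2 was left out. Over all probes limma called 113, and 157 with the dam as a replicate block (96 shared), 67 with no filter, and 32 to 99 with 1 array left out (32 and 68 without overexpressors 1 and 2, and 49, 54 and 60 without controls 1 to 3). The replicate block changed the calls named in the report (5730409K12Rik, 6430548M08Rik, Flrt1, Sox8, Nanos2 and Dnd1) and left Hey1 and Ccnd1 called. The cause of these changes was not tested. Detection on all 6 arrays gave 7 members in all. Dim probes limit the sizes, since the uncorrected signal holds background.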

Other observations

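Read more loosely, the rule takes in 10 further clone-named probes that went 1 way in every dam with a mean log2 difference of 0.3 or more in size, 9 of them of genes with no member. They are named here after their values were seen. The higher ones were 1810058I24Rik, also listed as Stmp1, at 0.36 ± 0.11 (SD, n = 3), C430049B03Rik, a long non-coding RNA of the X chromosome that also carries the names of microRNAs mir-322, mir-351 and mir-503, at 0.33 ± 0.30, 4931406C07Rik at 0.31 ± 0.16 and E130308A19Rik at 0.31 ± 0.20. The lower ones ran from 4933434E20Rik at -0.31 ± 0.02 and Gm884 at -0.33 ± 0.17 through 6330509M05Rik at -0.34 ± 0.04 and 4933412E12Rik at -0.36 ± 0.18 to Gm5801 at -0.40 ± 0.51. C430049B03Rik read 847.0, 1117.8 and 1340.4 in overexpressors and 841.1, 733.9 and 1028.1 in controls, so dam 1 showed nearly no difference. Gm5801 read 795.3, 2038.4 and 728.8 in overexpressors and 879.1, 2139.0 and 1445.7 in controls, and its mean rests on dam 3. Where the genes without a member had other detected probes, those differed less. Their mean log2 differences were 0.03 to 0.12 for E130308A19Rik, 0.09 for C430049B03Rik and 0.0 for 1810058I24Rik. On the lower side they were -0.10 for Gm5801, and -0.24 and -0.11 for 4933434E20Rik.

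Probes with no gene symbol met the rule's shift as well: 49 of 2973 detected (1.65%), 26 higher with means from 0.35 to 1.41 and 23 lower with means from -1.31 to -0.33. Of 48 probes whose symbols look like sequence accessions or numbered clones but fall outside the naming pattern, 16 were detected and 0 met the shift.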
